A study of Mus musculus with 6 samples.

Results

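The genes of 10 mitochondrial redox enzymes were examined in mouse hearts, from Nnt, which makes NADPH at the inner mitochondrial membrane, to the enzymes that spend NADPH on the removal of peroxides. They were taken as every row of the deposited table whose gene name was Nnt, Idh2, Txn2, Txnrd2, Prdx3, Prdx5, Sod2, Gpx4, Gsr or Glrx2. This gave 11 of the 30914 rows, because Nnt has 2 overlapping gene models. The list was drawn up with earlier results of these hearts known, and Nnt was chosen by the FPKM of its shorter model, already seen to differ between the groups, so the values of the Nnt models are given as a description, with no test.

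RNA was sequenced from heart tissue of wild-type male C57BL/6J mice, 8 weeks old at the start, and which part of the heart was taken is not given in the sources used here. The Ang II group (n = 3) was infused with angiotensin II at 1 μg/kg/min for 4 weeks by osmotic pump. The Ang II + Tec group (n = 3) had the same infusion and was given the flavonoid tectochrysin (Tec) at 5 mg/kg in the last 2 weeks, so Ang II was common to all 6 hearts and no uninfused heart was analysed here. Values are FPKM, the fragments of a gene scaled to transcript length and to all mapped fragments. The values of a group are always given in the order of its replicates 1, 2 and 3.

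In the mitochondrial matrix, NADPH is supplied mainly by the proton-driven transhydrogenase NNT and by the NADP-dependent isocitrate dehydrogenase IDH2. It feeds thioredoxin reductase (Txnrd2), which keeps thioredoxin (Txn2) reduced for the peroxiredoxins, and glutathione reductase (Gsr), which keeps glutathione reduced for glutathione peroxidases and glutaredoxin. In the heart, where mitochondria fill much of the muscle cell, this relay takes up the hydrogen peroxide that superoxide dismutase (Sod2) forms from superoxide. C57BL/6J mice are known for a deletion of several exons inside Nnt. The GRCm38 assembly is of this strain, so neither Nnt model of the table holds the deleted exons. The FPKM do not show which allele the animals carried or whether they made a working NNT protein, so Nnt levels are not read as NADPH supply.

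The Nnt models lie on the minus strand of chromosome 13 in GRCm38. The longer model (ENSMUSG00000025453) runs from 119335448 to 119408997 and the shorter (ENSMUSG00000116207) from 119335528 to 119408952, and both rows have the coordinates of GENCODE release M21. There, the shorter model has 1 transcript of 17 exons and 3339 bases, and the longer has 5 transcripts. Of the 3339 bases, 0 lie outside the exons of the longer model. One transcript of the longer model has the same 17 exons and the same coding sequence of 2505 bases in 16 coding segments, and adds only 45 bases at its 5′ end and 80 at its 3′ end, all untranslated. The shorter transcript therefore covers 96.4% of it, and a fragment that lies within the shorter transcript fits either model. A different coding transcript of the longer model shares 2225 of its 3198 bases with the shorter model, so the longer model also holds bases outside the shorter. Another transcript of the longer model skips exons 8 and 9 of the shared structure of 17 exons. These exons are shown because they are the only coding stretch by which that transcript departs from the sequence that both models hold; they are printed 5′ to 3′ on the minus strand from the GENCODE M21 transcripts, with no capitals because no letter of them differs between the models. Exon 8 is at chr13:119374629-119374774 and exon 9 at chr13:119372396-119372591.
Nnt coding exon 8: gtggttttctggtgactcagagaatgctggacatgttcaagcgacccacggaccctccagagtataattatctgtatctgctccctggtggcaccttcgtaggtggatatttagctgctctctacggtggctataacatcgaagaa
Nnt coding exon 9: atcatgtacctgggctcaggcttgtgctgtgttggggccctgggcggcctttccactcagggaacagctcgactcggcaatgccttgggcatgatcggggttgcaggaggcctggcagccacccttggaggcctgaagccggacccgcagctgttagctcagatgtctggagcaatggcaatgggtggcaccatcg

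**Figure D1:**
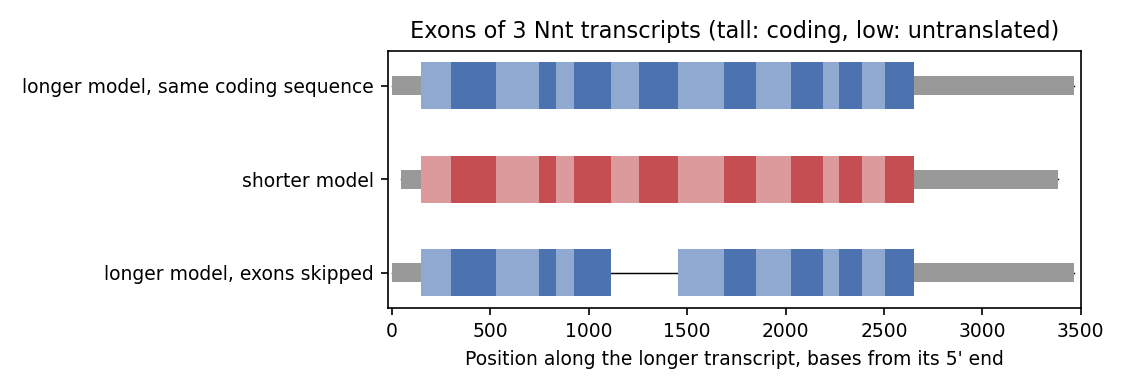
Exons of 3 Nnt transcripts along the spliced longer transcript, in bases from its 5′ end, with coding parts tall and untranslated parts low. The top transcript, of the longer model, shares all 2505 coding bases with the shorter model and differs only by 45 and 80 untranslated bases at the ends. A further transcript of the longer model lacks exons 8 and 9, and its other transcripts are not drawn.

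The shorter Nnt model was listed at 0 FPKM in all Ang II hearts and at 38.8, 32.02 and 81.9 FPKM with Tec added. The longer model had 55.8, 44.8 and 86.4 FPKM with Ang II alone and 27.0, 25.5 and 2.54 with Tec added. The models thus differed in opposite directions, and in neither did the groups overlap. As a share of the Nnt sum, the shorter model held 0% in each Ang II library and 59.02%, 55.6% and 97.0% in the Ang II + Tec libraries. In Ang II + Tec replicate 3 almost the whole of Nnt was listed under the shorter model, and in the other two treated hearts the longer model still held 41.0% and 44.4%.

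The sum of the models was 55.8, 44.8 and 86.4 FPKM with Ang II alone and 65.8, 57.5 and 84.4 with Tec added. The treated values all lay within the range of the Ang II values. On the scale of log2(FPKM + 1) the sum was 0.18 higher with Tec (standard error 0.25, limma), a difference smaller than its error. That difference became -0.022 when Ang II replicate 2 was left out and 0.44 when replicate 3 was, so its direction rested on single hearts. The longer model alone had a log2 difference of -2.15, which became -1.16 without Ang II + Tec replicate 3. How the fragments of Nnt were divided between its models was not tested.

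**Figure D2:**
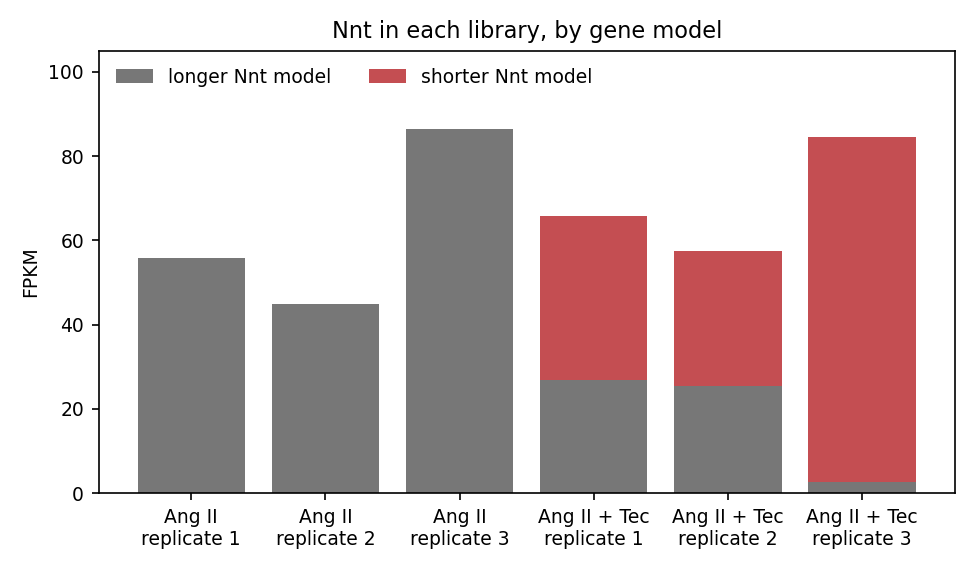
FPKM of Nnt in each of the 6 libraries, with the longer model in grey and the shorter stacked on it in red. The shorter model is listed at 0 for each of the 3 Ang II hearts and makes up 55.6% to 97.0% of the sum in the Ang II + Tec libraries, while the sums of the groups overlap.

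The pattern for which Nnt was chosen was looked up in the rest of the table, as a description. In all, 46 pairs of rows, from 43 gene names, shared their name and strand and overlapped. Both rows were high enough to be tested in 8 pairs and only 1 row in 12 more, and the remaining pairs could not show the pattern. Nnt was the only pair in which a row was at 0 in every library of 1 group and at 1 FPKM or more in every library of the other. Among single rows of the whole table, Olfr1033, an olfactory receptor gene, was the only other one with that pattern, with 0 FPKM in each Ang II heart and 1.78, 3.56 and 2.68 FPKM with Tec added. The nearest case among the pairs was Zc3h11a, where the shorter model had 1.45, 1.69 and 14.98 FPKM with Ang II alone and 0, 0.550 and 0.560 with Tec added; it was picked out after its values were seen. The longer Zc3h11a model had 1.64, 0.970 and 0.280 FPKM with Ang II alone and 0.780, 2.14 and 1.70 with Tec added, with overlap between the groups.

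No other row of the table overlapped Nnt. Its nearest tested neighbours were Paip1, which encodes a protein that binds the poly(A)-binding protein, 19604 bases away, and Mrps30, which encodes a mitochondrial ribosomal protein, 948196 bases away. Mean FPKM of Paip1 was 19.1 ± 2.07 (SD, n = 3) with Ang II alone and 17.5 ± 0.218 (SD, n = 3) with Tec added, and that of Mrps30 was 4.83 ± 0.114 (SD, n = 3) and 4.75 ± 0.444 (SD, n = 3). In each neighbour the groups overlapped.

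Of the 13089 genes that reached 0.5 FPKM in 3 or more libraries, 21 (0.160%) were called different between the groups (11 higher with Tec, 0.0840%, and 10 lower, 0.0764%), at a limma adjusted p-value (Benjamini-Hochberg) under 0.05 and an absolute log2 difference of at least 1. The shorter Nnt row, by whose values Nnt was chosen, is among the 11 called higher, and this is not read as a result. With the Nnt rows replaced by their sum, 10 genes were called (6 higher with Tec and 4 lower). All 11 rows of the 10 enzymes passed the limit on FPKM, and 0 of the 9 enzymes other than Nnt were called. Their limma adjusted p-values ran from 0.305 (Idh2) to 0.992 (Prdx5), and 0 of 9 had an unadjusted p-value under 0.05, against 18.6% of all tested genes (2.09% higher with Tec and 16.5% lower). In 2 of the 9, Txn2 and Gsr, the groups did not overlap, and each was lower with Tec, while 21.8% of all tested genes did not overlap with Tec values lower in 18.9% and higher in 2.90%. The median log2 difference of the 9 enzymes was 0.0019 and that of all tested genes was -0.17. With 3 hearts a group, 0.1 is the lowest p-value that exact permutation of the hearts allows for any gene.

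Some properties of the libraries moved with the groups. Transcripts of the mitochondrial genome made up 40.1% to 48.9% of the summed FPKM in the Ang II group and 49.6% to 52.5% in the Ang II + Tec group. Ang II replicate 3 stood apart from the other Ang II hearts and nearer to the treated ones, at 19.2 on the first principal component against -31.2 and -46.05. Without that library 557 genes (4.26%) were called, and with it 21. All 6 ventricular muscle markers were present, with a summed level of 7282 to 8965 FPKM in the Ang II group and 7671 to 8500 in the Ang II + Tec group. Summed leukocyte markers (5 genes) ranged from 149.7 to 322 and from 109.5 to 119.7 FPKM, fibroblast markers (5 genes) from 115 to 531 and from 101 to 167, endothelial markers (5 genes) from 92.2 to 94.9 and from 79.6 to 87.3, and smooth muscle markers (4 genes) from 92.1 to 316 and from 49.9 to 231 in the same order. Atrial markers (4 genes) ranged from 256 to 10253 and from 128 to 5032 FPKM, adipocyte markers (4 genes) from 0.490 to 9.80 and from 0.150 to 61.7, with Ucp1 at 0 in 4 of the 6 libraries, and erythroid markers (4 genes) from 247 to 1015 and from 147 to 525. In bulk tissue, fewer cells of a type and less RNA per cell cannot be told apart.

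The atrial markers divided the libraries across the groups. Myl7, the atrial myosin light chain, had 419, 332 and 0 FPKM with Ang II alone and 0, 1040 and 1.58 with Tec added. Sln, which encodes the atrial calcium pump regulator sarcolipin, had 67.1, 134.8 and 0.050 FPKM and then 0, 255 and 0.020. By Myl7 and Sln, atrial RNA was thus at or near 0 in Ang II replicate 3 and Ang II + Tec replicates 1 and 3. It was plentiful in the other 3 libraries, so the sampled tissue was not alike in all 6. Myl4 had 0.560, 0.290 and 1.02 FPKM in the libraries low in Myl7 and Sln. Nppa was also lowest in them but far from 0, at 256, 906 and 125 FPKM. The 3 libraries low in Myl7 and Sln also had the 3 highest values of the Nnt sum and of Prdx3, and the part of atrial tissue in these values was not tested.

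FPKM are per length of transcript, so levels can be compared between the enzymes. Over the 6 libraries the mean level was highest for Idh2 (330 FPKM), followed by Gpx4 (315), Prdx3 (153), Prdx5 (100.7), the Nnt sum (65.8), Txn2 (37.6), Sod2 (36.6), Gsr (5.81), Txnrd2 (4.98) and Glrx2 (2.02). Neighbours in this order overlapped over the libraries in 3 places, between Idh2 and Gpx4, between Txn2 and Sod2 and between Gsr and Txnrd2, and the other neighbours did not overlap. The reductases that draw directly on NADPH were thus among the lowest transcripts and the peroxidases among the highest in every library. The Nnt sum varied most between libraries, with its highest value 1.93 times its lowest, followed by Idh2 at 1.77, while Prdx5 varied least, at 1.13.

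**Figure D3:**
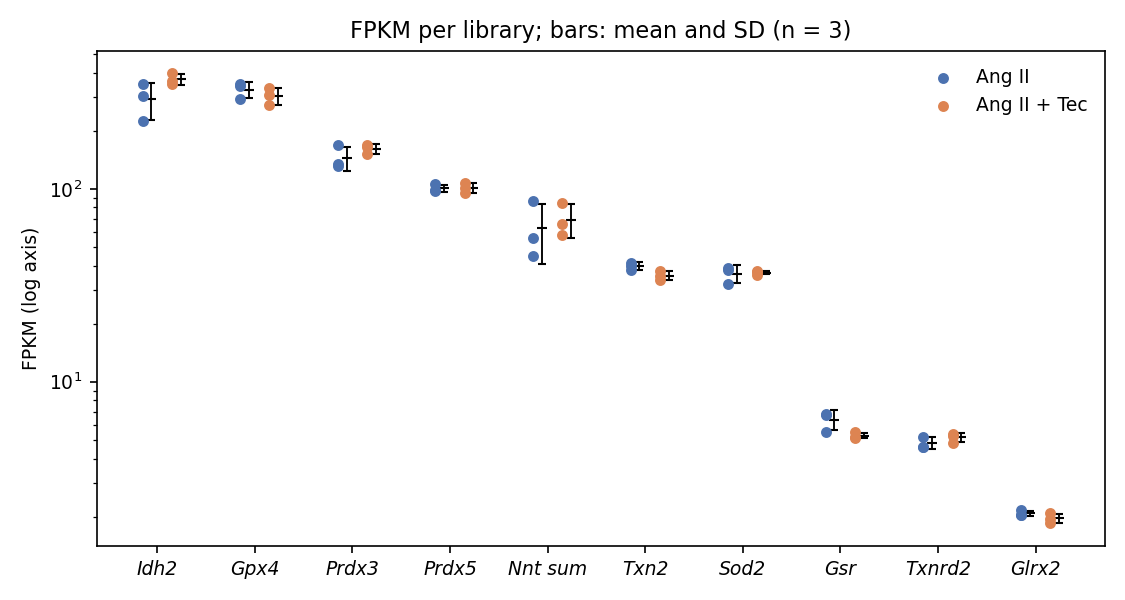
FPKM of the Nnt sum and the 9 other enzymes in each library on a log axis, with the Ang II group in blue, the Ang II + Tec group in orange, and black bars for the mean and SD of each group (n = 3). Levels span from 1.86 FPKM (Glrx2) to 397 FPKM (Idh2), and the groups are apart only for Txn2 and Gsr.

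Idh2, on chromosome 7 from 80094846 to 80115392, encodes the matrix enzyme that forms NADPH while it oxidises isocitrate. It had 301, 224 and 350.0 FPKM with Ang II alone and 397, 361 and 349 with Tec added. Ang II replicates 1 and 2 lay below all treated hearts, and Ang II replicate 3 lay above Ang II + Tec replicate 3. The log2 difference was 0.36 (standard error 0.18, limma adjusted p-value 0.305), the largest of the 9 in either direction. Without Ang II replicate 3 it was 0.50 with an adjusted p-value of 0.0385, in a fit where 28.8% of all genes were past that threshold of 0.05, and without Ang II replicate 2 it was 0.18 with an adjusted p-value of 0.695 (limma). It was 0.59 after median-of-ratios scaling and 0.46 after quantile normalization, with limma adjusted p-values of 0.330 and 0.312. The libraries with the least mitochondrial RNA, Ang II replicate 1 (41.3%) and Ang II replicate 2 (40.1%), were also those with the least Idh2, and the part of mitochondrial RNA in this difference was not tested.

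The thioredoxin branch held 1 gene whose groups did not overlap. Txn2, the mitochondrial thioredoxin, had 40.02, 37.7 and 41.4 FPKM with Ang II alone and 35.3, 33.6 and 37.5 with Tec added. The gap between the nearest hearts was small, and the log2 difference of -0.16 (standard error 0.10, limma adjusted p-value 0.398) took the opposite sign when libraries were scaled by the median of ratios (0.071) or by quantiles (0.079). Txnrd2, the selenium-containing reductase that recycles it, had 4.61, 4.61 and 5.20 FPKM with Ang II alone and 5.24, 5.39 and 4.82 with Tec added, with overlap and a log2 difference of 0.083 (standard error 0.11, limma adjusted p-value 0.651). Prdx3, the peroxiredoxin of the matrix that Txn2 reduces, had 135, 131 and 168 FPKM with Ang II alone and 168, 151 and 165 with Tec added. As with Idh2, Ang II replicates 1 and 2 were the lowest hearts and Ang II replicate 3 lay among the treated ones, and the log2 difference was 0.16 (standard error 0.13, limma adjusted p-value 0.476). Prdx5, a peroxiredoxin found in mitochondria, peroxisomes and cytosol, had 98.9, 97.2 and 105.7 FPKM with Ang II alone and 107.03, 94.8 and 100.5 with Tec added. Its highest and its lowest value both came from treated hearts, and its group means differed by less than 1 SD. The scalings that turned Txn2 raised the other differences of this branch, to 0.28 and 0.30 for Txnrd2, 0.40 and 0.37 for Prdx3 and 0.24 and 0.23 for Prdx5 (median of ratios and quantiles), with limma adjusted p-values from 0.331 to 0.509.

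The active sites of 3 enzymes are shown because the chemistry of the relay sits in them. Each is a stretch of coding sequence from the GENCODE M21 transcripts, 5′ to 3′ on the strand of the gene. Capitals mark the in-frame TGA of Gpx4 and Txnrd2, which is read as selenocysteine rather than as a stop, and the codons of the Cys-Gly-Pro-Cys motif of Txn2, each found once in frame. The Gpx4 stretch is at chr10:80054707-80054769 on the plus strand, that of Txnrd2 at chr16:18477742-18477777 on the plus strand, at the end of its coding sequence, and that of Txn2 at chr15:77924621-77924666 on the minus strand.
Gpx4: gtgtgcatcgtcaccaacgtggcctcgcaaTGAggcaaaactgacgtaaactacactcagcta
Txnrd2: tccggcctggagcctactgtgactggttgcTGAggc
Txn2: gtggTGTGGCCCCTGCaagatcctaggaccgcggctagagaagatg

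In the glutathione branch, Gsr showed the most negative difference of the 9 enzymes. This glutathione reductase serves the cytosol as well as mitochondria. It had 6.84, 6.73 and 5.52 FPKM with Ang II alone and 5.47, 5.19 and 5.13 with Tec added, without overlap between the groups, although Ang II replicate 3 lay close to the treated hearts. The log2 difference was -0.23 (standard error 0.12, limma adjusted p-value 0.319) and shrank to -0.026 under median-of-ratios scaling and to -0.014 under quantile normalization. Summed leukocyte markers, at 187, 322 and 149.7 FPKM with Ang II alone and 119.3, 109.5 and 119.7 with Tec added, were likewise without overlap. Ang II replicate 3 was again nearest to the treated hearts. Lyz2 made up most of this sum. The groups did not overlap for Lyz2, Cd68 and Csf1r but overlapped for Ptprc and Adgre1. Summed endothelial markers were also without overlap, at 92.2 to 94.9 FPKM with Ang II alone and 79.6 to 87.3 with Tec added. So was the share of mitochondrial transcripts, which was higher with Tec. The part of leukocytes, endothelial cells or mitochondrial RNA in the Gsr values was not tested.

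Gpx4, which reduces lipid peroxides in membranes and has cytosolic, mitochondrial and nuclear forms from 1 gene, had 341, 347 and 292 FPKM with Ang II alone and 333, 273 and 305 with Tec added. The groups overlapped, and the log2 difference of -0.11 (standard error 0.13, limma adjusted p-value 0.629) was positive under median-of-ratios scaling (0.13) and quantile normalization (0.048). Glrx2, a glutaredoxin that removes glutathione from protein thiols, had 2.05, 2.16 and 2.05 FPKM with Ang II alone and 1.86, 2.08 and 1.94 with Tec added, with overlap and a log2 difference of -0.061 (standard error 0.10), positive under both of these scalings. Sod2, the manganese superoxide dismutase of the matrix, had 38.1, 31.9 and 39.0 FPKM with Ang II alone and 35.9, 37.2 and 37.3 with Tec added. Here the treated hearts all lay within the range of the Ang II hearts, with a log2 difference of 0.024 (standard error 0.12), which was 0.25 after median-of-ratios scaling and 0.27 after quantile normalization.

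**Figure D4:**
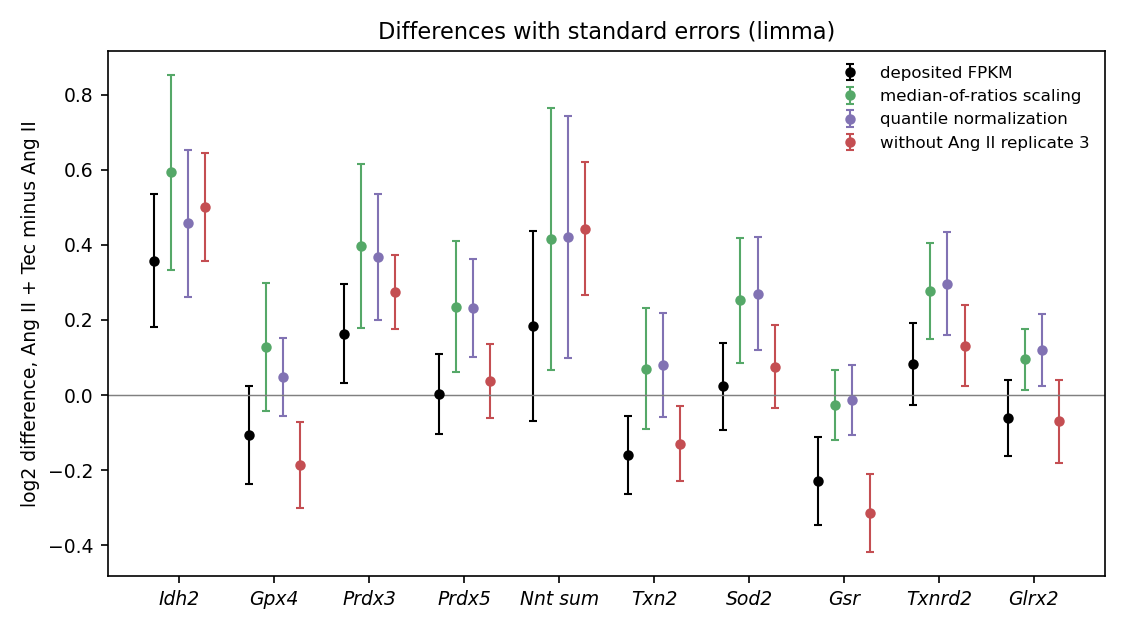
Log2 difference of the Nnt sum and each of the 9 other enzymes (Ang II + Tec minus Ang II) with its standard error, for the deposited FPKM, 2 scalings and the fit without Ang II replicate 3. The Nnt sum, Idh2, Prdx3, Prdx5, Txnrd2 and Sod2 are above 0 in each of these 4 fits and Gsr is below 0 in each. Txn2, Gpx4 and Glrx2 lie below 0 for the deposited FPKM and above 0 after either scaling.

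Ratios within a library do not change when all its values are multiplied by the same factor, as in median-of-ratios scaling, but can under quantile normalization. Of such ratios 7 were computed, chosen after values of the enzymes had been seen and therefore given as a description, with no test. Prdx3 over Txn2 was 3.36, 3.48 and 4.06 with Ang II alone and 4.77, 4.50 and 4.39 with Tec added. Txn2 over Txnrd2 was 8.68, 8.18 and 7.96 with Ang II alone and 6.73, 6.23 and 7.79 with Tec added. Idh2 over Idh1, its cytosolic counterpart, was 17.8, 10.9 and 17.5 with Ang II alone and 28.05, 24.2 and 24.2 with Tec added. In these 3 ratios the groups did not overlap. The other 4 ratios (Idh2 over the Nnt sum, Gpx4 over Gsr, Prdx3 over Prdx5 and Sod2 over Sod1) had overlapping groups.

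Genes related to this chemistry or to mitochondrial content were read from 4 lists. Not all of them encode enzymes, and 0 of the genes were called. In the list of mitochondrial NADPH supply (12 genes, all tested) 4 were higher and 8 lower with Tec, where 80.0% of all tested genes were lower. The median log2 difference was -0.10, and the groups did not overlap in 3 (1 higher and 2 lower), against 21.8% of all tested genes. The list was drawn broadly, and not all of its genes encode enzymes that form NADPH. It holds the 3 subunits of the NAD-dependent isocitrate dehydrogenase, which forms NADH. Without them, a choice made after the values were seen, 2 were higher and 7 lower, with a median of -0.16 and no overlap in 1. The extremes of the whole list were Idh3b, one of these subunits (0.27, standard error 0.14), and Mthfd1l, an enzyme of mitochondrial folate metabolism (-0.34, standard error 0.19). Among the subunits, Idh3g had 90.2, 77.3 and 100.04 FPKM with Ang II alone and 103.7, 108.6 and 107.9 with Tec added, whereas Idh3a had 120.8, 102.6 and 112 and then 90.6, 95.8 and 99.1. The groups did not overlap in either, with Idh3g higher and Idh3a lower in the treated hearts, but neither was past the test, and both were picked out after their values were seen.

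The list of mitochondrial glutathione and thiol partners (15 genes, all tested) held 7 higher and 8 lower, where 80.0% of all tested genes were lower. The median log2 difference was -0.12, with no overlap in 3, all of them lower, against 18.9% of all tested genes in that direction. Gstk1, a glutathione transferase of mitochondria and peroxisomes, was at 0.41 (standard error 0.22, limma adjusted p-value 0.327). Gpx1, the abundant glutathione peroxidase of cytosol and mitochondria, had 73.7, 90.5 and 43.3 FPKM with Ang II alone and 34.6, 46.3 and 34.03 with Tec added. Its log2 difference of -0.79 (standard error 0.27, limma adjusted p-value 0.230) was the largest of all 4 lists, and the third Ang II heart was lower than the second treated heart.

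Among cytosolic and extracellular counterparts (22 genes, all tested) 6 were higher and 16 lower, where 80.0% of all tested genes were lower. The median log2 difference was -0.20, near that of all tested genes. The groups did not overlap in 5 (2 higher and 3 lower), against 21.8% of all tested genes. Txnip, which binds and restrains thioredoxin, had the highest difference (0.41, standard error 0.15, limma adjusted p-value 0.234), and its groups did not overlap, at 169.8, 148 and 204 FPKM with Ang II alone and 245, 209 and 238 with Tec added. Sod3, the extracellular superoxide dismutase, had the lowest (-0.75, standard error 0.56). The other genes without overlap, picked out after their values were seen, were Cat, Glrx, Idh1 and Txnrd3. Cat, the catalase gene, had a log2 difference of 0.39 (standard error 0.11, limma adjusted p-value 0.217), and Glrx, the cytosolic glutaredoxin, had -0.68 (standard error 0.13, limma adjusted p-value 0.169). Txnrd3, a thioredoxin reductase, was at -0.16 (standard error 0.10). Idh1 had 16.9, 20.7 and 20.05 FPKM with Ang II alone and 14.2, 14.9 and 14.4 with Tec added. Its log2 difference was -0.38 (standard error 0.12, limma adjusted p-value 0.221), opposite in sign to that of Idh2. The 15 mitochondrial content genes, such as the citrate synthase gene Cs and the outer membrane channel gene Vdac1, had a median log2 difference of -0.16, with 5 higher and 10 lower and no overlap in 6 (1 higher and 5 lower), against 21.8% of all tested genes. They ranged from Tomm20, a receptor of the protein import machinery of the outer membrane (-0.35, standard error 0.12), to Immt, which organises the cristae (0.11, standard error 0.10). After median-of-ratios scaling or quantile normalization the medians of 3 lists lay between 0.070 and 0.11, above 0, and that of the cytosolic and extracellular counterparts was 0.027 or -0.0081, while the median of all tested genes moved to 0.0020 or 0.020.

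**Figure D5:**
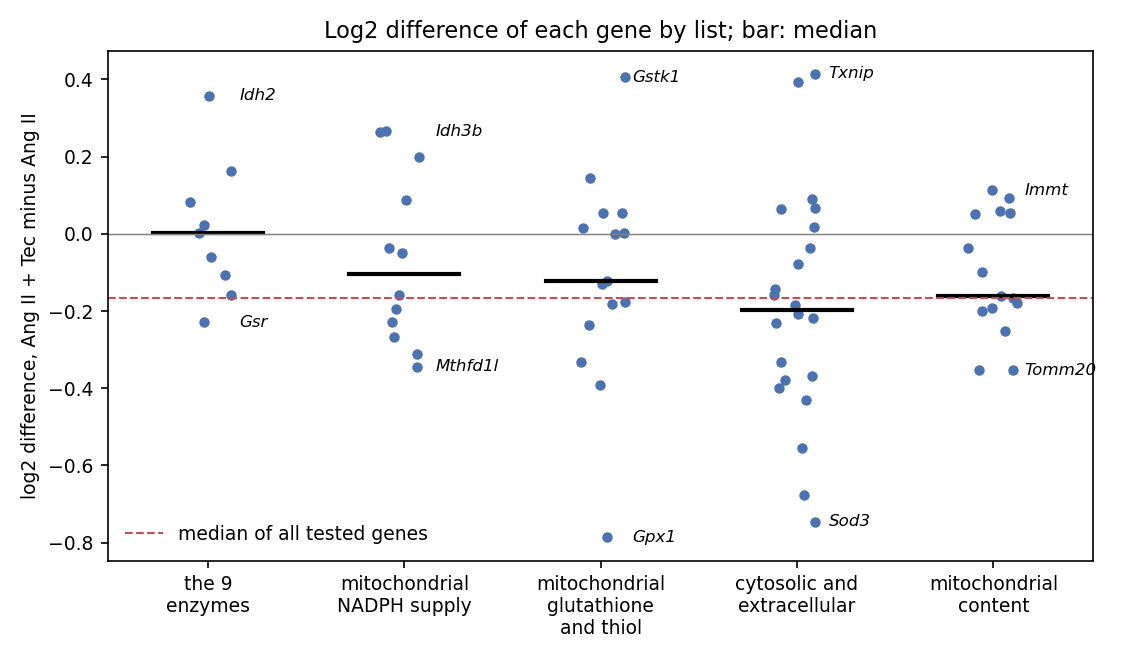
Log2 difference (Ang II + Tec minus Ang II) of each tested gene in the 9 enzymes and the 4 lists, with a bar at the median and a dashed line at the median of all 13089 tested genes (-0.17). Points range from -0.79 (Gpx1) to 0.41 (Txnip), and the named points are the extremes of each list.

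The 5 tested genes whose level over the 6 libraries was most like that of the Nnt sum were Bend5, Msrb2, Fbp2, Lrrc39 and Cyth1, with Pearson's r on log2(FPKM + 1) from 0.983 to 0.995. Msrb2, a methionine sulfoxide reductase of mitochondria, had 32.0, 27.8 and 39.0 FPKM with Ang II alone and 32.7, 31.5 and 37.8 with Tec added, so as with Nnt the highest heart was replicate 3 in either group. Of the 9 enzymes, Prdx3 was the most like the Nnt sum (r = 0.87), with 146 tested genes closer, and Gsr the least (r = -0.70). These coefficients describe 6 libraries whose values share the FPKM scaling.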

How the data were processed

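FPKM per gene and library, rounded to 2 decimals, were deposited by the authors for 30914 genes in 6 libraries of polyadenylated RNA. Reads were trimmed and filtered by the authors with Cutadapt, and their quality was checked with FastQC. The submitters' processing notes name Bowtie 0.12.2, HISAT2 2.0, StringTie 1.3.0 and the build mm8, without their roles, but the coordinates of the table equal those of GENCODE M21 on GRCm38 for 26777 of 30832 shared genes (86.8%) and for 7 of the 11 rows examined. The other 4 rows differ at 1 end. FPKM keep no read total, so the depth behind a value is unknown, no counting interval is given and no count model was used. Nothing says whether same-group hearts were processed together. The p-values set each group difference against the spread between hearts of a group, and cannot tell treatment from processing shared within a group.

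Genes with at least 0.5 FPKM in at least 3 libraries were tested on log2(FPKM + 1), which understates the change of low genes, with limma 3.58.1 in R 4.3.3 (eBayes with a trend) and Benjamini-Hochberg adjustment over all 13089. The fit was tested on simulated data. Exons and sequences come from GENCODE M21, at the coordinates of the table. Alternatives changed the pseudocount, filter, scaling, block, variance and weights, and left out each library. Named were all 10 enzymes, the extremes of each list, neighbours and overlapping rows of Nnt, and the 5 genes most like its sum. Outside this rule, Olfr1033, Zc3h11a, Idh3g, Idh3a, Idh1, Cat, Glrx, Txnrd3 and single cell type markers were named after their values were seen. The NADPH list without the Idh3 subunits was also added then. The enzymes, lists and rules were chosen with earlier results of these data known. Figures were drawn with matplotlib 3.10.9.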

Additional observations from a re-analysis of the deposited data

How the results depend on the processing

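Over 17 alternatives, 0 of the 9 enzymes other than Nnt were called in any, and 4 of them (Idh2, Prdx3, Txnrd2 and Gsr) kept their direction in all. Of 153 values, 141 kept their direction and 12 did not. The filters, the block and the variance setting cannot change a log2 difference, so some of the 141 were fixed in advance. Under median-of-ratios scaling the log2 differences of Glrx2, Gpx4 and Txn2 became 0.095, 0.13 and 0.071, under quantile normalization 0.12, 0.048 and 0.079, and with libraries scaled to the mitochondrial content genes, chosen after seeing the data, Glrx2 and Gpx4 were at 0.011 and 0.00079. With 1 library left out, Prdx5 ranged from -0.042 to 0.044 (below 0 without the first treated heart, -0.042, or Ang II replicate 1 or 2, -0.010 and -0.022) and Sod2 from -0.064, without Ang II replicate 2, to 0.075. An adjusted p-value under 0.05 occurred for 2 of the 153 values, both of Idh2 (limma, 0.0385 without Ang II replicate 3 and 0.0435 with array weights, where 28.8% and 27.1% of all tested genes were under 0.05).

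The median log2 difference over all tested genes was -0.17, and 0.0020 after median-of-ratios scaling. The number of genes called in the whole table was 21 (11 higher, 10 lower). It was 522 with array weights (51 higher, 471 lower), 11 with a filter of 1 FPKM in all 6 libraries, 10 with the Nnt rows summed, 3 with no filter, and between 2 and 557 when 1 library was left out (2 without Ang II + Tec replicate 2, 557 without Ang II replicate 3); the cause was not tested. The log2 difference of the Nnt sum was 0.61 with array weights, against 0.18, and from -0.022 to 0.44 when 1 library was left out. The mean share of the shorter model in the Ang II + Tec group was 70.6%, 57.3% to 78.0% when a library was left out, and 69.9% when weighted by transcript length, which was chosen after seeing the data because the table gives no lengths.

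Same-numbered libraries deviated together in 2 of 3 pairs (r = -0.039, 0.43 and 0.38). The labels number the hearts but state no pairing, so the numbers were not taken as pairs. Whether same-numbered hearts share a factor was not tested. With the replicate block 22 genes were called, 0 of them among the 9 enzymes. Genes with an unadjusted limma p-value under 0.05 were 3308 with the block and 2439 without it. The log2 difference of the Nnt sum stayed at 0.18, which a block cannot change in this balanced design. Its standard error was 0.14 with the block and 0.25 without it.

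The list medians were -0.10 for NADPH supply, -0.12 for glutathione and thiol partners and -0.16 for mitochondrial content genes. They were 0.090, 0.077 and 0.070 after median-of-ratios scaling and 0.11, 0.082 and 0.081 after quantile normalization. FPKM hold no read totals, so depth sets no stated limit here.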
